A study of Mus musculus with 2 samples.

Results

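Venular endothelial cells line the small veins behind the capillary bed. In the mouse mammary tumors described here they were 136 cells among 688 blood endothelial cells, and among 21702 cells that passed the quality filters. They were selected on their own RNA: a cell of the blood endothelial gate was a member when it held at least 1 unique molecular identifier (UMI) of 2 or more of the 4 genes Selp, Sele, Ackr1 and Vwf. The gate took cells with 3 or more of Pecam1, Cdh5, Emcn, Plvap, Egfl7 and Cd93, under 5 UMIs of the pericyte gene Rgs5 and fewer than 2 of the lymphatic genes Mmrn1, Reln and Prox1. The levels of these genes in the members follow from this choice and are given as a description. Since the members were chosen from the same RNA that is described, every difference from the other cells of the gate is a description as well.

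The cells came from 1 Dll1+ tumor and 1 Dll1- tumor, both untreated control tumors of mice, with 1 library each. Dll1 encodes a ligand on the cell surface that binds Notch receptors. Whole tumors were digested with enzymes, per the labels, then stained for CD31, CD45 and Ter119, and sorted for live CD45- cells, so leukocytes were meant to be depleted in both libraries. CD31 is the product of the endothelial gene Pecam1, and a sort gate on it could have set how many endothelial cells there were. The strain, the age, the tumor model and how Dll1 status was set are not described in the sources at hand. With 1 tumor a group, no difference between the tumors can be tested, and the intervals below, all at 95%, cover counting error alone.

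Post-capillary venules are the stretch of the vascular tree where most leukocytes leave the blood. P-selectin, encoded by Selp, is stored with von Willebrand factor, the product of Vwf, in Weibel-Palade bodies and reaches the surface within minutes of stimulation, while E-selectin, encoded by Sele, is made anew after inflammatory cytokines. Both selectins slow leukocytes on the vessel wall, and ICAM-1 and VCAM-1 then bind their integrins and arrest them. ACKR1, the atypical chemokine receptor known as the Duffy antigen, binds chemokines and presents or removes them, and in the mouse it marks venules. Arterial endothelium is instead shaped by Notch signalling through DLL4, with Hey1 and Efnb2 among its marks, and tip cells at the front of a sprouting vessel carry Esm1 and Cxcr4.

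Expression of E-selectin, P-selectin and ICAM-1 in the mouse is known to respond to NF-kB, and the promoters of these genes are shown because the cells were picked on 3 of the 4 genes and Icam1 stood higher in them, as described below. Shown are the 250 bases before the start of each gene, 5′ to 3′ on the strand of the gene, from RefSeq on GRCm38.p6. Capitals mark matches to GGNNNTTCC, a short form of the NF-kB motif, on either strand.

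Selp: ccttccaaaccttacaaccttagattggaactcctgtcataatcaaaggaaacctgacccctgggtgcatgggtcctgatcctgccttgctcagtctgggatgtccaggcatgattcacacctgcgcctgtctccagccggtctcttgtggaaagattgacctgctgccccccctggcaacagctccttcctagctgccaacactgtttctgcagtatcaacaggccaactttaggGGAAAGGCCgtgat
Sele: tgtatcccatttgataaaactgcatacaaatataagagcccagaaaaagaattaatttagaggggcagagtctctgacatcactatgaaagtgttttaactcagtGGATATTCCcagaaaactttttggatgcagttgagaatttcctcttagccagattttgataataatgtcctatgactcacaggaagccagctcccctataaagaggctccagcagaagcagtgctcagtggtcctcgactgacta
Ackr1: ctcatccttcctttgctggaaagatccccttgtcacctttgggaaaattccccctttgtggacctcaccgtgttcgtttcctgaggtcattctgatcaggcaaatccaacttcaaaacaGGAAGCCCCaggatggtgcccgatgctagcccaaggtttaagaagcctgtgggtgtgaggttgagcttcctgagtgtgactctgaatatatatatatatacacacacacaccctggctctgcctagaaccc
Icam1: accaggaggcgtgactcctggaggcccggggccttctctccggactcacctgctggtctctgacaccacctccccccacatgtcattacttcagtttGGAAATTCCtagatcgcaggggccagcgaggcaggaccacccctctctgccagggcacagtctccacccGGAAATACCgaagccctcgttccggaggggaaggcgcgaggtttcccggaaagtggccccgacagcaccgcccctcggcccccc

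The windows lie at chr1:164115014-164115263 on the plus strand for Selp, chr1:164047984-164048233 on the plus strand for Sele, chr1:173333504-173333753 on the minus strand for Ackr1 and chr9:21015690-21015939 on the plus strand for Icam1. Selp had its match from -14 to -6 relative to the gene start, on the minus strand. Sele had one from -145 to -137 on the plus strand. Ackr1 had one from -131 to -123 on the minus strand. Icam1 had 2, one from -153 to -145 that fits the motif on both strands and one from -84 to -76 on the minus strand. The motif was chosen with these promoters in view, and 5108 of 32536 RefSeq promoters of this length (15.7%) hold it. A match is a run of letters and was not tested as a binding site. Vwf was looked up too and is only named.

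Per cell, the venular cells were deeper than their neighbours. They had medians of 6698 UMIs and 2554 genes in the Dll1+ and 7164 UMIs and 2616 genes in the Dll1- library, against 5150 UMIs and 2169 genes (Dll1+) and 3981 UMIs and 1795 genes (Dll1-) in the other cells of the gate. All venular cells together held 524211 UMIs in the Dll1+ and 803829 in the Dll1- library. Levels below are in CPM, the summed UMIs of a gene relative to all UMIs of the same cells, scaled to 1 common total for each class and library. The cells that passed the filters held 112167024 UMIs in the Dll1+ and 133493536 in the Dll1- library. The libraries shared 109 barcodes, none of them a venular cell.

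Endothelial identity was plain in the venular cells, as the gate required. Pecam1 was detected in 51 of 54 Dll1+ and 79 of 82 Dll1- venular cells, and so was Cdh5, which encodes the adherens junction protein VE-cadherin. Leukocyte markers were near 0. The macrophage genes Ptprc, Adgre1, Csf1r and Fcgr1 had no UMI in venular cells, and the 10 macrophage markers summed to 13.4 CPM in Dll1+ and 2.49 CPM in Dll1- venular cells. Platelets also store P-selectin and von Willebrand factor, and 7 of the 10 platelet markers, Ppbp, Gp1bb, Gp1ba, Gp9, Treml1, Gp5 and Clec1b, were at 0 in the venular cells of both libraries. The other 3 brought the sum to 38.2 CPM in venular and 30.2 CPM in other Dll1+ cells, and to 28.6 CPM in venular and 14.2 CPM in other Dll1- cells, Itga2b with 21 and 14.9 CPM in Dll1+ and Dll1- venular cells being one of them. Ackr1 was the member gene with a second source: the fibroblast gate held 59.4 CPM of it in the Dll1+ library and 96.5 CPM in the Dll1- library. Selp, by contrast, was at 0 there, and at 0.0649 and 0.117 CPM in the tumor epithelium of the Dll1+ and Dll1- libraries.

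Transcripts of tumor epithelium were present throughout the gate. The 10 epithelial markers, among them Epcam, Krt8 and Krt18, summed to 3962 CPM in venular and 8430 CPM in other gate cells of the Dll1+ library, and to 9643 CPM in venular and 10800 CPM in other gate cells of the Dll1- library. At least 2 of Epcam, Krt8, Krt18 and Krt19 were detected in 18 of 54 Dll1+ venular cells (33.3%) and in 33 of 82 Dll1- venular cells (40.2%). The 10 fibroblast markers summed to 87.8 CPM in venular and 694 CPM in other cells of the Dll1+ library, and to 1079 CPM in venular and 484 CPM in other cells of the Dll1- library. Epithelial and fibroblast UMIs thus stood higher in the Dll1- than in the Dll1+ venular cells, and their part in the results below was not tested. Results were also computed without every cell that held 2 or more of the 4 epithelial genes or 2 or more of the 4 fibroblast genes Pdgfra, Dcn, Lum and Dpt, which left 36 Dll1+ and 48 Dll1- venular cells. The cells left are called marker-poor cells.

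**Figure D1:**
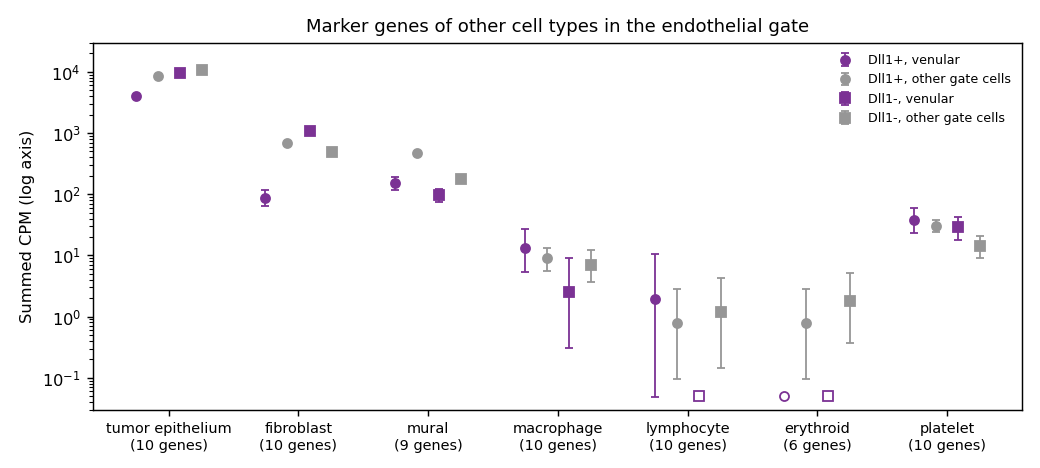
Summed level in CPM, on a log axis, of the marker genes of other cell types in venular and other gate cells of the Dll1+ and the Dll1- tumor, with exact Poisson 95% intervals; open symbols at the lower edge stand for 0 UMIs. Epithelial markers sum to 3962 CPM in Dll1+ and 9643 CPM in Dll1- venular cells, while macrophage markers sum to 13.4 and 2.49 CPM.

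The venular share of the endothelial gate was smaller in the Dll1+ than in the Dll1- tumor. Venular cells were 54 of 341 cells (15.8%, exact Clopper-Pearson interval 12.1 to 20.2) in the Dll1+ library and 82 of 347 cells (23.6%, 19.3 to 28.5) in the Dll1- library. The Dll1+ share minus the Dll1- share was -7.80 percentage points, with a Newcombe interval of -13.7 to -1.84. Detection grows with depth, so each cell was also thinned to 2000 UMIs, leaving out 41 Dll1+ and 52 Dll1- gate cells with fewer. The shares were then 27 of 300 (9.0%, 6.02 to 12.8) and 33 of 295 (11.2%, 7.83 to 15.4), and these intervals overlap over most of their length. Of all cells that passed the filters, venular cells were 0.510% in the Dll1+ and 0.737% in the Dll1- library.

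**Figure D2:**
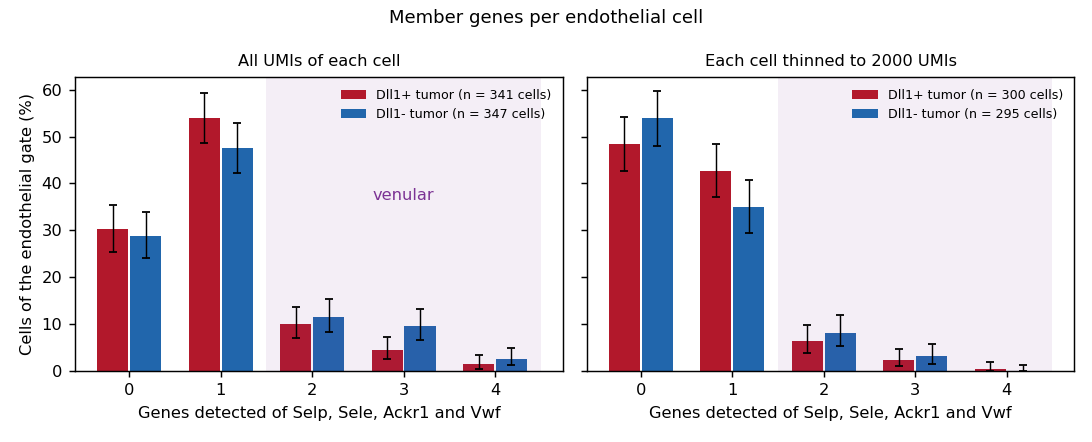
Percent of gate cells with 0 to 4 of the genes Selp, Sele, Ackr1 and Vwf detected, with all UMIs (left, 341 Dll1+ and 347 Dll1- cells) and with each cell thinned to 2000 UMIs (right, 300 and 295 cells); bars are the Dll1+ (red) and Dll1- (blue) library with exact Clopper-Pearson 95% intervals, and shading marks venular cells. Cells with 2 or more of the genes are 15.8% and 23.6% at full depth and 9.0% and 11.2% after thinning.

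Members differed in which of the 4 genes they held. Selp was detected in 45 of 54 Dll1+ and 73 of 82 Dll1- venular cells, and Vwf in 46 Dll1+ and 59 Dll1- venular cells. Sele was detected in 24 Dll1+ and 47 Dll1- venular cells, and Ackr1 in 18 and 36. In the Dll1+ library the most frequent pair was Selp with Vwf and nothing else, in 19 of 54 cells. In the Dll1- library 15 of 82 cells held that pair, 15 held Selp with Sele and another 15 held Selp with Ackr1 and Vwf. All 4 genes were found together in 5 Dll1+ and 9 Dll1- cells.

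Selp summed to 340 CPM (interval 292 to 393, 178 UMIs) in Dll1+ venular and 4.65 CPM in the other Dll1+ gate cells, and to 520 CPM (471 to 572, 418 UMIs) in Dll1- venular and 26.0 CPM in the other Dll1- gate cells. Sele had 71 UMIs in Dll1+ venular cells and none in the other 287 cells of that gate, a level at least 117-fold higher when the zero is set to 3 UMIs over the class. In the Dll1- library Sele had 175 CPM in venular and 6.51 CPM in other gate cells. Ackr1 had 189 CPM in venular and 0.775 CPM (2 UMIs) in other Dll1+ gate cells, and 110 CPM in venular and 5.32 CPM in other Dll1- gate cells. Vwf behaved unlike the other 3 and did not set venular cells apart: it had 343 CPM in venular and 307 CPM in other Dll1+ cells, and 154 CPM in venular and 271 CPM in other Dll1- cells.

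The threshold of 2 genes therefore runs mostly through cells that differ in a gene beside Vwf. Just outside it were 184 Dll1+ and 165 Dll1- cells with exactly 1 of the 4 genes, and in 173 of these Dll1+ cells (94.0%) and 134 of these Dll1- cells (81.2%) that gene was Vwf. Just inside were 34 Dll1+ and 40 Dll1- cells with exactly 2. Cells with Vwf alone had medians of 4946 UMIs in the Dll1+ and 4014 in the Dll1- library, and cells with exactly 2 genes 7352 and 8678.

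Along the steps from no member gene to Vwf alone, to 2 and to 3 or 4 member genes, Icam1 stood at 84.4, 128, 217 and 480 CPM in the Dll1+ library and at 214, 138, 666 and 740 CPM in the Dll1- library. Nr2f2, the transcription factor COUP-TFII that holds endothelium in the venous state, went through 29.6, 37.6, 118 and 154 CPM in the Dll1+ library and 46.6, 42.0, 53.2 and 143 CPM in the Dll1- library. Ch25h, the enzyme that makes 25-hydroxycholesterol, went through 8.71, 19.9, 31.0 and 69.3 CPM in the Dll1+ library and 12.4, 16.0, 32.4 and 102 CPM in the Dll1- library. For these 3 genes the class with 3 or 4 member genes was the highest in both libraries. Il6st, the shared receptor subunit gp130 of the interleukin-6 family, reached 213 CPM there in the Dll1+ library, but in the Dll1- library its 72.7 CPM lay near the 64.2 CPM of cells with Vwf alone. The gate genes differed along the steps too. In the Dll1+ library Plvap had 642, 1298, 1511 and 1337 CPM and Emcn 432, 771, 1123 and 1109 CPM. In the Dll1- library Plvap had 952, 991, 874 and 1139 CPM and Emcn 852, 877, 819 and 1206 CPM. The part of such endothelial content in the steps of other genes was not tested.

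A different set of genes peaked in cells with Vwf alone. Esm1, which encodes the secreted proteoglycan endocan of tip cells, had 152, 767, 152 and 4.95 CPM along the same 4 steps in the Dll1+ and 273, 586, 20.8 and 13.5 CPM in the Dll1- library. The chemokine receptor Cxcr4 had 37.4, 153, 12.4 and 4.95 CPM in the Dll1+ library and 83.8, 159, 6.94 and 5.39 CPM in the Dll1- library. Efnb2, the arterial ephrin-B2, had 228 CPM in Dll1+ and 190 CPM in Dll1- cells with Vwf alone, against no UMI in Dll1+ and 40.4 CPM in Dll1- cells with 3 or 4 member genes. Hey1, a Notch target of arteries, had 26.1, 112, 21.7 and 4.95 CPM in the Dll1+ library and 63.6, 120, 20.8 and 5.39 CPM in the Dll1- library. Cells with Vwf alone thus carried arterial and tip cell genes in both tumors.

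A small group outside the threshold resembled the members in some genes and not in others. The 11 Dll1+ and 31 Dll1- cells whose only member gene was Selp, Sele or Ackr1 had 178 CPM of Icam1 in the Dll1+ library and 644 CPM in the Dll1- library, and 30.9 CPM of Esm1 in the Dll1+ library and 29.6 CPM in the Dll1- library. When 1 or more of Selp, Sele and Ackr1 made a cell venular, with Vwf left out of the rule, 65 Dll1+ and 113 Dll1- cells were members.

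**Figure D3:**
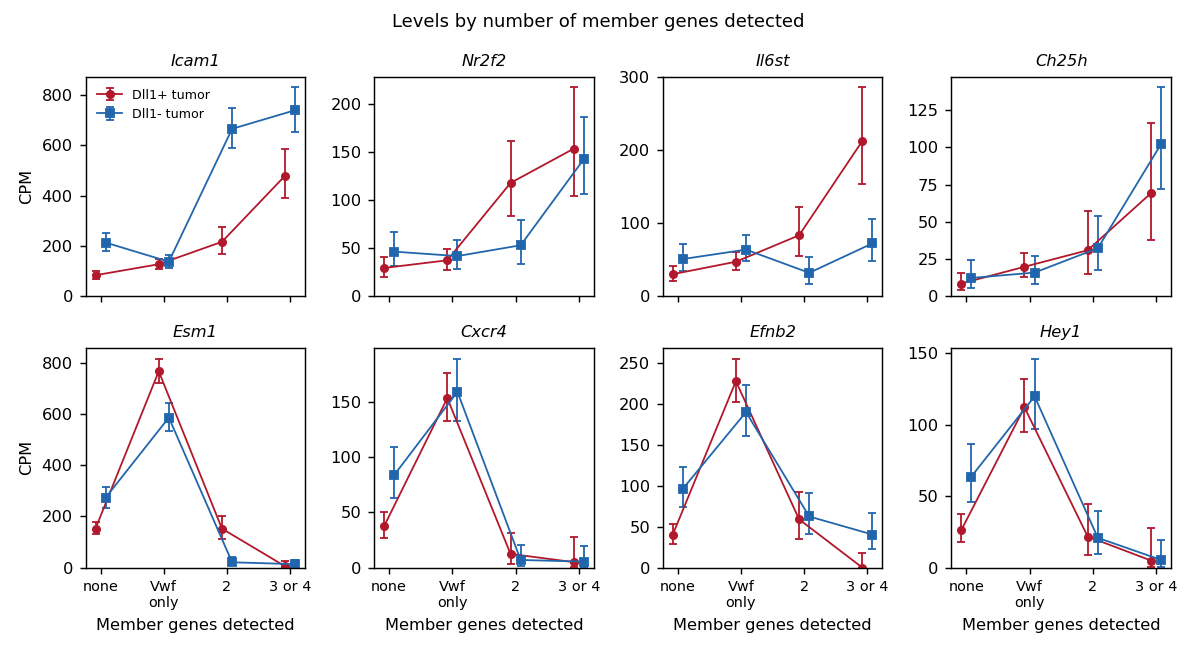
Level in CPM of 8 genes in gate cells with none of the member genes, with Vwf only, with 2 and with 3 or 4 of them, in the Dll1+ (red circles) and Dll1- (blue squares) library, with exact Poisson 95% intervals. Icam1 reaches 480 and 740 CPM with 3 or 4 member genes, whereas Esm1 peaks at 767 and 586 CPM in cells with Vwf alone.

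Genes outside the rule were then compared between venular and other gate cells within each library, as the log2 ratio of CPM plus 1. Few genes differed in both tumors. At 2-fold, 16 of 6133 genes (0.261%) were higher in venular cells in both libraries and 44 (0.717%) were lower in both. At the 1.5-fold used for gene lists, 97 of 7585 measured genes (1.28%) were higher and 207 (2.73%) lower in both. Within 1 library more genes passed 1.5-fold: 8.72% of genes were higher and 15.8% lower in the Dll1+ library, and 6.54% higher and 10.9% lower in the Dll1- library.

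A few adhesion molecules for leukocytes were higher in the venular cells of both tumors. Icam1 had 319 CPM (272 to 371, 167 UMIs) in venular and 111 CPM (98.7 to 125) in other Dll1+ gate cells, and 700 CPM (644 to 761, 563 UMIs) in venular and 238 CPM (215 to 262) in other Dll1- gate cells. The log2 ratio was 1.51 in the Dll1+ library (interval 1.24 to 1.80) and 1.56 in the Dll1- library (1.37 to 1.75), and tumor epithelium held 36.9 CPM in the Dll1+ library and 52.8 CPM in the Dll1- library. Among marker-poor cells the ratio of Icam1 was 0.96 in the Dll1+ and 1.89 in the Dll1- library. Vcam1 differed more in the Dll1- library, with 85.8 CPM in venular and 11.8 CPM in other cells, than in the Dll1+ library, with 45.8 CPM in venular and 27.9 CPM in other cells. Jam2, the junctional adhesion molecule JAM-B that binds leukocytes passing between endothelial cells, had 61.0 CPM in venular and 13.9 CPM in other Dll1+ cells, and 41.1 CPM in venular and 24.8 CPM in other Dll1- cells. These 3 were the members of a list of 25 adhesion and transmigration genes that were 1.5-fold higher in both libraries, of 16 measured, and none was lower in both. The median log2 ratio over those 16 was 0.02, beside -0.02 over all measured genes. Icam2, an ICAM family member that resting endothelium carries, showed no common direction, with 231 CPM in venular and 207 CPM in other Dll1+ cells, and 168 CPM in venular and 244 CPM in other Dll1- cells.

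Cytokine and chemokine genes stood apart in both directions. Il6, which encodes interleukin-6, had 63.0 CPM in venular and 19.8 CPM in other Dll1+ cells, and 79.6 CPM in venular and 26.6 CPM in other Dll1- cells, while epithelium held 0.574 CPM in the Dll1+ library and 0.394 CPM in the Dll1- library and the fibroblast gate 162 CPM (Dll1+) and 170 CPM (Dll1-). Csf3, the gene of the neutrophil growth factor G-CSF, had 139 CPM in venular and 51.1 CPM in other Dll1+ cells, and 250 CPM in venular and 109 CPM in other Dll1- cells, while epithelium held 149 CPM in the Dll1+ library and 166 CPM in the Dll1- library. Among marker-poor cells the log2 ratio of Il6 was 0.93 in the Dll1+ and 1.57 in the Dll1- library, and that of Csf3 was 2.81 in the Dll1+ and 2.52 in the Dll1- library. The chemokine genes Ccl2 and Cxcl12 were lower. Ccl2, which draws monocytes, had 55.3 CPM in venular and 323 CPM in other Dll1+ cells, and 54.7 CPM in venular and 86.3 CPM in other Dll1- cells. Cxcl12, the ligand of CXCR4, had 22.9 CPM in venular and 91.0 CPM in other Dll1+ cells, and 13.7 CPM in venular and 73.3 CPM in other Dll1- cells. In all, 2 of 12 measured cytokine and chemokine genes were higher and 3 lower in both libraries, and Lif, a cytokine of the interleukin-6 family, was the other lower one.

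Il1r1, the signalling receptor for interleukin-1, had 53.4 CPM in venular and 10.8 CPM in other Dll1+ cells, and 32.4 CPM in venular and 14.2 CPM in other Dll1- cells. Of 16 measured inflammatory receptors it was the 1 that was higher in both, and Il10rb, a subunit of the interleukin-10 receptor, was the 1 that was lower, with a median of 0.03. Of 17 measured NF-kB response genes, 2 were higher and none lower in both, with a median of 0.10. These 2 were Icam1 and Vcam1, already counted above as adhesion genes.

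Venous identity genes were higher above all in the Dll1+ library. Of 14 measured, 10 were 1.5-fold higher and 1 lower there, with a median log2 ratio of 0.73, and 4 were higher and 3 lower in the Dll1- library, with a median of 0.11. Nr2f2 had 132 CPM in venular and 34.1 CPM in other Dll1+ cells, and 94.6 CPM in venular and 51.5 CPM in other Dll1- cells. Aplnr, the apelin receptor of veins, had 349 CPM in venular and 158 CPM in other Dll1+ cells, and 307 CPM in venular and 277 CPM in other Dll1- cells. Lrg1, a secreted glycoprotein of venular endothelium, had 826 CPM in venular and 291 CPM in other Dll1+ cells, and 628 CPM in venular and 481 CPM in other Dll1- cells. Of the 10 genes higher in the Dll1+ library, Aplnr and Nrp2 fell to log2 ratios of 0.28 and -0.28 among marker-poor cells. Nr2f2, Lrg1, Il6st, Prcp, Il1r1 and Lifr stayed past 1.5-fold there, at 1.98, 1.49, 2.37, 1.33, 1.86 and 0.94. Ephb4, the venous receptor for ephrin-B2, stood level, with 40.1 CPM in venular and 39.1 CPM in other Dll1+ cells, and 44.8 CPM in venular and 43.2 CPM in other Dll1- cells. Flt4, the VEGF receptor best known from lymphatics, was the list member that was lower in both. It had 45.8 CPM in venular and 70.9 CPM in other Dll1+ cells, and 41.1 CPM in venular and 73.9 CPM in other Dll1- cells. In both libraries Nr2f2, Vcam1 and Il1r1 were the 3 higher genes, so the venous label rests on part of the list.

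Genes that keep blood fluid or stop its loss were also higher in part. Of 17 measured hemostasis genes, 5 were 1.5-fold higher and none lower in both libraries, with a median of 0.28. Procr, the endothelial protein C receptor, had 89.7 CPM in venular and 43.0 CPM in other Dll1+ cells, and 67.2 CPM in venular and 37.9 CPM in other Dll1- cells. Entpd1, the surface enzyme CD39 that breaks down ATP and ADP, had 250 CPM in venular and 84.0 CPM in other Dll1+ cells, and 174 CPM in venular and 104 CPM in other Dll1- cells. The Dll1+ median of the list was 0.43, and it was -0.07 among marker-poor cells. The tissue factor pathway inhibitors Tfpi and Tfpi2 were among the 5 as well. Their Dll1+ log2 ratios among marker-poor cells were -0.34 for Tfpi and -0.02 for Tfpi2.

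Other genes higher in venular cells belong to the matrix, to lipid and to transcription. Ctnnal1, an alpha-catenin relative, had the highest mean ratio, on few UMIs: 22.9 CPM in venular and 3.87 CPM in other Dll1+ cells, and 21.2 CPM in venular and 2.37 CPM in other Dll1- cells. Tgfbi, a secreted matrix protein induced by TGF-beta, had 68.7 CPM in venular and 11.6 CPM in other Dll1+ cells, and 51.0 CPM in venular and 20.7 CPM in other Dll1- cells. Fbln5, the elastic fibre protein fibulin-5, had 83.9 CPM in venular and 20.5 CPM in other Dll1+ cells, and 43.5 CPM in venular and 16.6 CPM in other Dll1- cells. Tinagl1, the gene of another secreted matrix protein, had 212 CPM in venular and 86.8 CPM in other Dll1+ cells, and 205 CPM in venular and 62.1 CPM in other Dll1- cells. Ch25h, described above by steps, had 45.8 CPM in venular and 16.3 CPM in other Dll1+ cells, and 64.7 CPM in venular and 23.7 CPM in other Dll1- cells. Lhx6, a LIM homeodomain factor known from interneurons, had 30.5 CPM in venular and 9.30 CPM in other Dll1+ cells, and 37.3 CPM in venular and 16.6 CPM in other Dll1- cells. Mctp1 and Pogk were higher in both as well, by log2 ratios of 2.30 and 1.51 in the Dll1+ and 1.00 and 1.41 in the Dll1- library. Neurl3, the gene of a ubiquitin ligase, had 32.4 CPM in venular and 10.8 CPM in other Dll1+ cells, and 28.6 CPM in venular and 10.6 CPM in other Dll1- cells. Among marker-poor cells, 7 of the 16 genes still passed 2-fold in both libraries and 15 kept their direction. The exception was Neurl3, at -0.10 in the Dll1+ library.

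**Figure D4:**
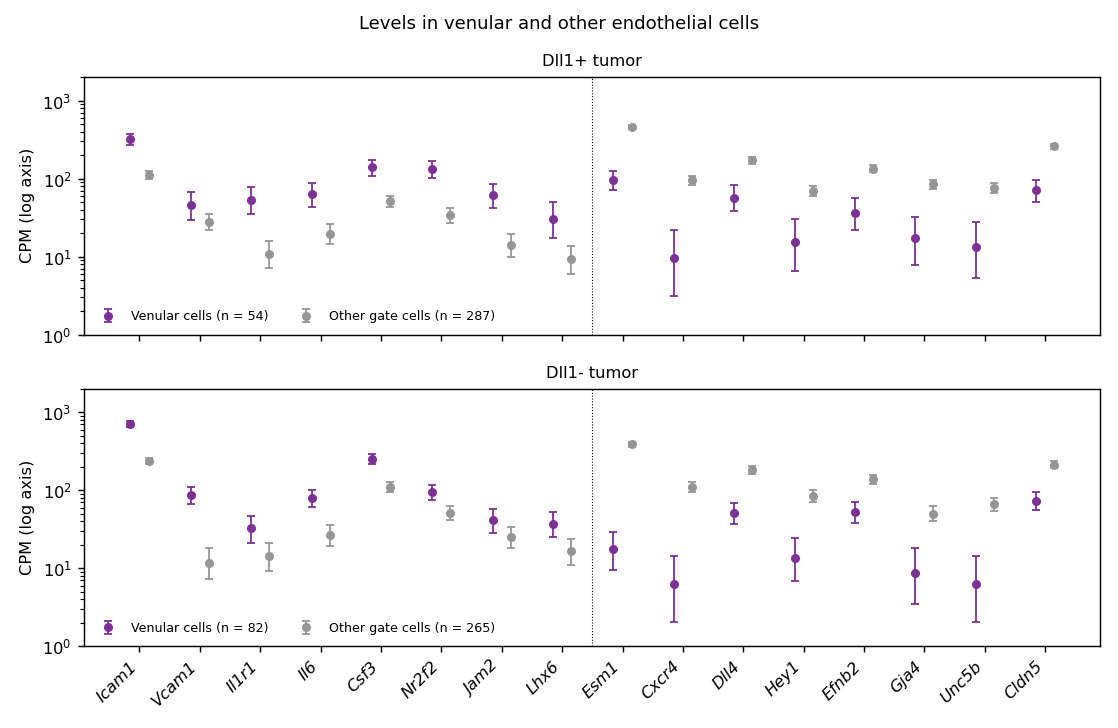
Level in CPM, on a log axis, of 8 genes higher (Icam1 to Lhx6) and 8 genes lower (Esm1 to Cldn5) in venular cells (purple) than in other gate cells (grey), for the Dll1+ (top) and Dll1- (bottom) tumor, with exact Poisson 95% intervals. Icam1 stands at 319 against 111 CPM in the Dll1+ and at 700 against 238 CPM in the Dll1- library, and Cxcr4 at 9.54 against 94.9 and at 6.22 against 111 CPM.

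Genes of sprouting were among those lower in venular cells. Cxcr4 had 5 UMIs in the venular cells of each library, 9.54 CPM in venular and 94.9 CPM in other Dll1+ cells, and 6.22 CPM in venular and 111 CPM in other Dll1- cells. Esm1 had 95.4 CPM in venular and 457 CPM in other Dll1+ cells, and 17.4 CPM in venular and 389 CPM in other Dll1- cells. Angpt2, the TIE2 ligand of remodelling vessels that is also stored in Weibel-Palade bodies, had 38.2 CPM in venular and 162 CPM in other Dll1+ cells, and 13.7 CPM in venular and 49.7 CPM in other Dll1- cells. None of 21 measured tip cell and angiogenic genes was 1.5-fold higher in both libraries and 8 were lower, with a median of -0.61. Igfbp3, a binding protein of insulin-like growth factors, was among the 8, with 805 CPM in venular and 2644 CPM in other Dll1+ cells, and 817 CPM in venular and 2102 CPM in other Dll1- cells.

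Several Notch and arterial genes were lower in the same cells. Dll4, the endothelial Notch ligand, had 57.2 CPM in venular and 171 CPM in other Dll1+ cells, and 51.0 CPM in venular and 182 CPM in other Dll1- cells. Hey1 had 15.3 CPM in venular and 68.9 CPM in other Dll1+ cells, and 13.7 CPM in venular and 84.6 CPM in other Dll1- cells. Efnb2 had 36.2 CPM in venular and 134 CPM in other Dll1+ cells, and 52.3 CPM in venular and 138 CPM in other Dll1- cells. The differences were smaller for a receptor and for another target. Hes1, a Notch target found in many cell types, had 111 CPM in venular and 235 CPM in other Dll1+ cells, and 129 CPM in venular and 277 CPM in other Dll1- cells. Notch4, the endothelial Notch receptor, had 57.2 CPM in venular and 87.1 CPM in other Dll1+ cells, and 46.0 CPM in venular and 98.2 CPM in other Dll1- cells. The gap junction gene Gja5 of arteries had no UMI in venular cells of either library, against 26 UMIs in other Dll1+ and 17 UMIs in other Dll1- cells, which puts it lower by at least 1.76-fold in the Dll1+ and by at least 2.69-fold in the Dll1- library. Of 15 measured arterial genes 7 were lower and 2 higher in both, with a median of -0.83. The 2 higher ones, Fbln2 and Fbln5, encode matrix proteins that fibroblasts also make, and a part of fibroblast RNA was not tested. Among marker-poor cells the log2 ratio of Fbln2 was 3.18 in the Dll1+ and 2.58 in the Dll1- library. That of Fbln5 was 2.49 in the Dll1+ and 0.98 in the Dll1- library. Of 7 measured Notch ligands and receptors 3 were lower and none higher. These genes follow the rule closely: with 1 member gene enough for membership, which brings in the cells with Vwf alone, the arterial median was 1.55 in the Dll1+ and 0.29 in the Dll1- library.

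Some capillary and junction genes were lower as well. Cldn5, the main claudin of endothelial tight junctions, had 70.6 CPM in venular and 258 CPM in other Dll1+ cells, and 73.4 CPM in venular and 213 CPM in other Dll1- cells. Gja4, the gap junction protein connexin 37, had 17.2 CPM in venular and 84.8 CPM in other Dll1+ cells, and 8.71 CPM in venular and 50.3 CPM in other Dll1- cells. Gpihbp1, which holds lipoprotein lipase on capillary walls, had 523 CPM in venular and 959 CPM in other Dll1+ cells, and 236 CPM in venular and 625 CPM in other Dll1- cells. Of 17 measured endothelial junction genes, Cldn5 and Gja4 were lower and Jam2 higher in both libraries, with a median of -0.09. Of 12 measured capillary genes 4 were lower and none higher in both libraries, with a median of -0.64. With 1 member gene enough for membership, the Dll1+ medians were 1.14 for capillary and 1.36 for tip cell genes. Further genes in the group of 44 were the potassium channel gene Kcnj2, the thromboxane receptor gene Tbxa2r, the semaphorin gene Sema7a, the ubiquitin hydrolase gene Uchl1, the RNA-binding protein gene Celf4 and the ciliary transport gene Ift122. Their log2 ratios were -3.31, -1.42, -1.82, -1.58, -1.77 and -1.94 in the Dll1+ and -1.46, -2.34, -1.80, -2.24, -1.80 and -1.48 in the Dll1- library, in that order, and Kcnj2 had 3 UMIs in Dll1+ venular cells. Among marker-poor cells, 38 of the 44 genes still passed 2-fold in both libraries and 41 kept their direction.

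Several programs showed little common difference between venular and other cells. Of 13 measured Weibel-Palade body and secretion genes Angpt2 was the single one past 1.5-fold in both. None of 15 MHC class I genes, 9 genes of the interferon-gamma list and 11 prostaglandin and nitric oxide genes passed 1.5-fold in both, in either direction. Basement membrane, TGF-beta, flow and hypoxia lists each had 1 gene lower and none higher.

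Between the tumors, the venular cells differed in more genes, with more of them higher in the Dll1+ tumor. Of 6726 genes, 474 (7.05%) were 2-fold higher and 280 (4.16%) 2-fold lower in Dll1+ than in Dll1- venular cells, a split of 62.9% higher. The median log2 ratio was 0.14. The split depends on the scaling, with 290 higher and 387 lower (42.8% higher) under TMM factors and 346 and 352 (49.6%) when the median is set to 0. At 1.5-fold, 16.0% of 5707 measured genes were higher and 8.38% lower, and their median of 0.10 is the level against which the lists below are read. In the other gate cells, 15.1% of 9541 measured genes were 1.5-fold higher and 5.26% lower in the Dll1+ tumor, with a median of 0.09. Pan-endothelial genes themselves summed to 8588 CPM in Dll1+ and 6309 CPM in Dll1- venular cells, while epithelial markers summed to 3962 and 9643 CPM as given above. Of the 10 epithelial markers 9 were lower in Dll1+ venular cells, and so were all 6 measured fibroblast markers, with medians of -1.79 and -3.51. Their part in the differences between the tumors was not tested.

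Capillary genes, which transport fatty acids and water or bind VEGF, were higher in the Dll1+ venular cells. Of 11 measured, 8 were 1.5-fold higher and none lower, with a median log2 ratio of 1.33, and in the other gate cells 5 of 14 were higher and none lower, with a median of 0.30. Fabp4, a fatty acid carrier of capillary endothelium and fat cells, had 2354 CPM in Dll1+ and 549 CPM in Dll1- venular cells, against 549 CPM in Dll1+ and 759 CPM in Dll1- other cells. Of the Dll1+ venular UMIs of Fabp4, 36% came from 1 cell, and the log2 ratio was 2.10 with and 1.90 without the cell of each library with the most. Aqp1, a water channel, had 607 CPM in Dll1+ and 168 CPM in Dll1- venular cells, and 631 CPM in Dll1+ and 515 CPM in Dll1- other cells. Cd36, a fatty acid receptor, had 59.1 CPM in Dll1+ and 18.7 CPM in Dll1- venular cells, and 23.6 CPM in Dll1+ and 30.8 CPM in Dll1- other cells. Kdr, the main VEGF receptor, had 616 CPM in Dll1+ and 342 CPM in Dll1- venular cells, and 531 CPM in Dll1+ and 474 CPM in Dll1- other cells. The ratios among marker-poor cells were 1.61 for Fabp4, 2.31 for Aqp1, 2.25 for Cd36 and 0.46 for Kdr. Of 15 measured VEGF and angiopoietin genes, 9 were higher and 1 lower in Dll1+ venular cells, with a median of 0.60, and in the other gate cells 3 of 16 were higher and 2 lower, near the 15.1% of all genes. Of these 9, Flt1, Tek, Tie1 and Apln had ratios of 0.36, 0.26, 0.20 and 0.29 among marker-poor cells, under 1.5-fold like Kdr. Nrp2 and Ptprb stayed past 1.5-fold there, at 0.85 and 0.67, and so did Angpt2, at 2.10 on 10 Dll1+ and 3 Dll1- UMIs. Whether the venular difference exceeded that of the other cells was not tested.

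Antigen presentation and interferon-gamma genes formed the second group that was higher in Dll1+ venular cells, and the other gate cells shared this direction. All 4 MHC class II genes measured in those other cells were 1.5-fold higher on the Dll1+ side, with a median log2 ratio of 2.7. For venular cells 2 such genes were measured, both higher, with a median of 5.18. Whether the venular difference exceeded that of the other cells was not tested. Cd74, the invariant chain that escorts MHC class II, had 246 CPM (206 to 292, 129 UMIs in 14 cells) in Dll1+ and 1.24 CPM (1 UMI) in Dll1- venular cells, a log2 ratio of 6.78 with an interval of 5.12 to 12.94. Its level was 149 CPM in Dll1+ and 2.55 CPM in Dll1- tumor epithelium, so the same direction held there. H2-Ab1, the beta chain of the class II molecule I-A, had 55.3 CPM in Dll1+ and 3.73 CPM (3 UMIs) in Dll1- venular cells, a ratio of 3.57 with an interval of 2.20 to 6.25. In marker-poor venular cells Cd74 had 95 UMIs in the Dll1+ library and none in the Dll1- library. Marker-poor other gate cells of the Dll1+ tumor held 124 UMIs of Cd74 (161 CPM), against 6 UMIs (8.56 CPM) for those of the Dll1- tumor. The interferon-gamma list held induced GTPases and also Irf1, Ubd and Socs1, which do not encode GTPases. Of its 9 genes measured in venular cells, 5 were higher and 1 lower, with a median of 0.85. In the other gate cells 7 of 13 were higher and 1 lower, and Ubd was among the higher genes of both classes. Of the GTPase genes, Gbp4 had 53.4 CPM in Dll1+ and 12.4 CPM in Dll1- venular cells, and Iigp1 had 225 CPM in Dll1+ and 111 CPM in Dll1- venular cells.

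Single cells weighed heavily in some of these values. Cxcl9, a chemokine that interferon-gamma induces and that draws T cells, had 506 CPM in Dll1+ and 29.9 CPM in Dll1- venular cells, but 72% of the Dll1+ UMIs came from 1 cell. Its log2 ratio was 4.04 with and 2.86 without the top cell of each library. Ubd, the ubiquitin-like modifier FAT10, had 166 CPM in Dll1+ and 14.9 CPM in Dll1- venular cells, with 78% of the Dll1+ UMIs from 1 cell, and ratios of 3.39 with and 2.38 without the top cells. Esm1 was higher in Dll1+ venular cells too, at 95.4 CPM against 17.4 CPM in Dll1- venular cells. That value rests on the cells near the threshold, since with 3 or more member genes its ratio was -1.28.

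**Figure D5:**
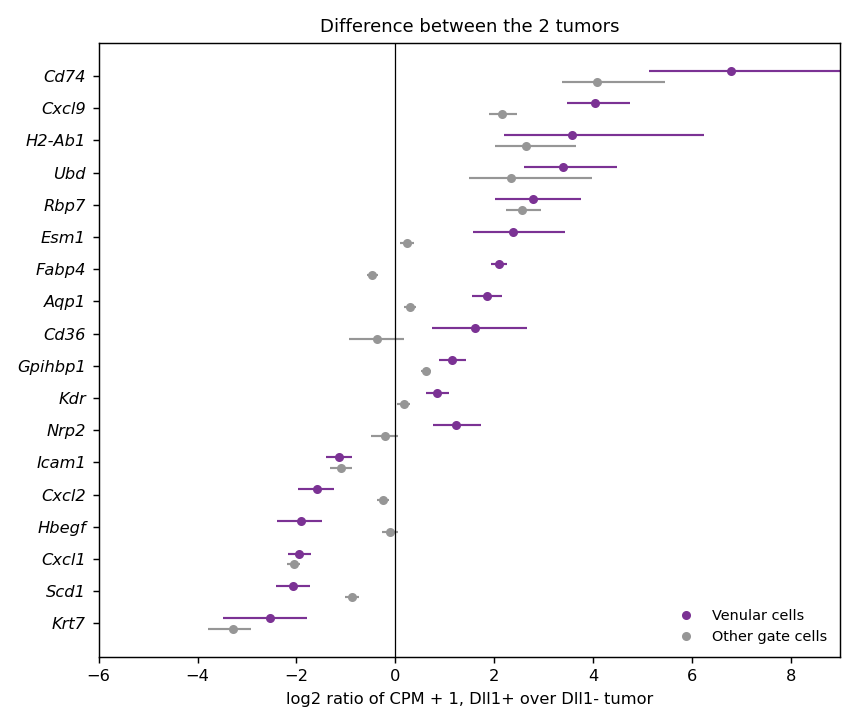
Log2 ratio of CPM plus 1, Dll1+ over Dll1-, for 18 genes in venular cells (purple) and other gate cells (grey), with exact conditional binomial 95% intervals; the interval of Cd74 runs past the end of the axis at 9. Fabp4 and Aqp1 lie at 2.10 and 1.85 in venular cells, Cd74 at 6.78, and Icam1 and Cxcl1 at -1.13 and -1.94.

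Icam1 and several chemokine genes were lower in Dll1+ venular cells. Icam1 had 319 CPM in Dll1+ and 700 CPM in Dll1- venular cells, a log2 ratio of -1.13 (interval -1.39 to -0.88), and the ratio in the other gate cells was -1.09. Cxcl1, a chemokine for neutrophils, had 347 CPM in Dll1+ and 1335 CPM in Dll1- venular cells, and 234 CPM in Dll1+ and 973 CPM in Dll1- other cells, while epithelium held 436 CPM in the Dll1+ library and 939 CPM in the Dll1- library. The ratio among marker-poor venular cells was -1.25 for Icam1 and -2.41 for Cxcl1. Of 10 measured chemokine and cytokine genes 5 were lower and 2 higher in Dll1+ venular cells, with a median of -0.56, and of 18 NF-kB response genes 5 were lower and 3 higher, with a median of -0.25. Both medians turned with the rule: they were 0.44 for chemokines and cytokines and 0.16 for NF-kB response genes with 3 or more member genes, and 0.02 and 0.14 with the rule on thinned cells. Inflammatory receptors did not follow, as 4 of 13 measured, namely Il1r1, Tnfrsf1a, Ltbr and Il6st, were higher in Dll1+ venular cells and none was lower, with a median of 0.46. Of 14 adhesion genes 2 were lower and 2 higher, so Icam1 and its list differed. Selp and Sele, on which the cells were chosen, had 340 and 135 CPM in Dll1+ and 520 and 175 CPM in Dll1- venular cells.

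Genes that dissociation is known to induce were lower in Dll1+ venular cells in 5 of 18 cases, namely Fosb, Atf3, Ier3, Hspb1 and Nr4a1, and none was higher, with a median of -0.22. Among marker-poor cells that median was -0.03, with 3 or more member genes it was 0.08, and with the rule on thinned cells 0.26. Of 17 type I interferon genes 6 were lower and 1 higher, with a median of -0.36, and the median was 0.34 among marker-poor cells and 0.14 with the rule on thinned cells.

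Several of the named genes between the tumors had the same direction in the tumor epithelium. Car2 and Car12, which encode carbonic anhydrases, had 135 and 93.5 CPM in Dll1+ and 14.9 and 11.2 CPM in Dll1- venular cells, beside 288 and 169 CPM in Dll1+ and 15.5 and 21 CPM in Dll1- epithelium. Aqp5, a water channel of secretory epithelium, had 172 CPM in Dll1+ and 36.1 CPM in Dll1- venular cells, beside 523 CPM in Dll1+ and 146 CPM in Dll1- epithelium. Rbp7, a retinoid carrier on the capillary list, had 134 CPM in Dll1+ and 18.7 CPM in Dll1- venular cells, beside 201 CPM in Dll1+ and 15.9 CPM in Dll1- epithelium. The sulfotransferase gene Hs3st1 and the HLH factor gene Id2, for which no epithelial level is given here, were higher by log2 ratios of 2.87 and 2.17. On the lower side was Krt7, a keratin, with 26.7 CPM in Dll1+ and 159 CPM in Dll1- venular cells beside 112 CPM in Dll1+ and 419 CPM in Dll1- epithelium. Scd1, the desaturase of fatty acid synthesis, had 160 CPM in Dll1+ and 672 CPM in Dll1- venular cells beside 784 CPM in Dll1+ and 1459 CPM in Dll1- epithelium. Bpifb5 had 7.63 CPM in Dll1+ and 61.0 CPM in Dll1- venular cells, with 80% of the Dll1- UMIs from 1 cell. Among marker-poor cells, Bpifb5 had no UMI in venular cells of either tumor, Krt7 had none in Dll1+ and 4 in Dll1- venular cells, and Aqp5 had 2 in Dll1+ and none in Dll1- venular cells. Car12 had 2 and 0 UMIs there, and Scd1 had 2 and 6. Car2, Rbp7, Hs3st1 and Id2 stayed higher in Dll1+ marker-poor venular cells, by log2 ratios of 1.60, 1.58, 2.55 and 2.29. Their UMIs were 7, 22, 18 and 22 in Dll1+ and 3, 10, 4 and 6 in Dll1- cells. The other 8 genes on the lower side were Isyna1, Klf5, Hat1, Hbegf, Plk3, Hist1h4i, Hist1h2ae and Plin2, with log2 ratios between -2.50 and -1.64.

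Dll1 itself was low in venular cells of both tumors. It had 26.7 CPM (14 UMIs) in Dll1+ and 11.2 CPM (9 UMIs) in Dll1- venular cells, and the interval of the log2 ratio of 1.18, from -0.06 to 2.64, included 0. Tumor epithelium held 53.6 CPM in the Dll1+ library and 5.23 CPM in the Dll1- library, so the label of the tumors showed in the epithelium. Of the 12 genes on the list of Notch ligands and receptors, 5 were measured in venular cells, and none of these passed 1.5-fold in either direction. Among marker-poor venular cells Notch1 stood at a log2 ratio of 0.88 (40 Dll1+ and 30 Dll1- UMIs), and Dll4 and Notch4 at 0.16 and 0.22. Dll4 had 57.2 CPM in Dll1+ and 51.0 CPM in Dll1- venular cells, a ratio of 0.16 (interval -0.56 to 0.88). Of 7 measured Notch targets 3, namely Nrarp, Myc and Ccnd1, were higher in Dll1+ venular cells, beside 16.0% of all measured genes. None was lower, and the median was -0.14. Among marker-poor venular cells the log2 ratios were 1.58 for Nrarp, 2.09 for Myc and 0.26 for Ccnd1. Nrarp had 22 UMIs in Dll1+ and 10 in Dll1- marker-poor venular cells, and Myc had 13 and 4. Hey1 had 15.3 CPM in Dll1+ and 13.7 CPM in Dll1- venular cells, with a ratio of 0.15 (interval -1.36 to 1.61).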

How the data were processed

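A Dll1+ and a Dll1- mouse mammary tumor gave 1 droplet single-cell RNA library each, from live CD45- cells. The deposited values are raw UMI counts per gene and barcode, which the file headers credit to Cell Ranger 4.0.0 as run by the authors. The genome was mm10, per the submitters' processing notes. No deposited barcode had under 500 UMIs. Settings and annotation release were not stated in the sources at hand. Of 32285 gene IDs, 32158 (99.6%) were found in GENCODE M21.

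Kept were barcodes with a minimum of 1000 UMIs and 500 genes and no more than 20% mitochondrial UMIs, 10581 of 13819 Dll1+ and 11121 of 13097 Dll1- barcodes. The endothelial gate held 355 Dll1+ and 361 Dll1- cells before 13 and 7 were taken out for Rgs5 and 1 and 7 for lymphatic genes. Doublets were not removed in the rule. The automatic threshold of scrublet in scanpy 1.11.5 marked 0 and 0 barcodes and so did not work, and an alternative removed the 896 Dll1+ (8.47%) and 989 Dll1- (8.89%) barcodes with the highest scores, at 0.8% per 1000 barcodes. Among venular cells these were 8 of 54 and 16 of 82.

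Counts were summed per class and library and given as CPM, and ratios are log2 of CPM plus 1. Intervals are exact Poisson for CPM, exact Clopper-Pearson for shares, exact conditional binomial for ratios without the added 1, and Newcombe for the difference of shares. No test was made, since each group is 1 library and cells are not replicates. Fold counts used genes with at least 20 CPM in 1 of the classes compared, and list members needed at least 30 UMIs over them. Cd99, Cxcl11, Mx1 and Rab46 were not found in the files, and Ccl19 and Ccl21a stood under more than 1 gene ID and were not measured. A zero was set to 3 UMIs over the class for a bound.

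Named genes are the 12 highest and 12 lowest in each comparison. Between venular and other cells they had to be 2-fold apart in the same direction in both libraries, with intervals on 1 side of 0, and were ranked by the mean ratio. Between tumors they needed at least 50 CPM in 1 library. Genes of the rule, mitochondrial and ribosomal protein genes, unnamed gene models, Xist, Tsix, Y-linked genes and genes over 5 times higher in the epithelial, fibroblast or mural gate were left out. Members of the gene lists and genes shown by steps were named as well, and 1 list gene is not reported here. The cells, the 26 gene lists and the 11 marker lists were chosen with earlier results of these data known. The epithelial gate (3 or more of Epcam, Krt8, Krt18 and Krt19), the fibroblast gate (3 or more of Pdgfra, Dcn, Lum and Dpt) and the mural gate (5 or more UMIs of Rgs5) were set after the data were seen. The alternatives are given in the closing section. The calculations were checked on simulated data and ran in Python 3.11.15 with scipy 1.17.1, numpy 2.4.6, matplotlib 3.10.9 and pandas 2.3.3, and edgeR 4.0.16 in R 4.3.3 gave the TMM factors.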

Additional observations from a re-analysis of the deposited data

Results flagged for a closer look

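For 4 genes the ratio of venular to other gate cells had opposite signs in the tumors, with counting intervals on opposite sides of 0. The difference between the tumors was not tested, since each tumor is 1 library. Cxcl10, a chemokine induced by interferons, had a log2 ratio of -0.98 in the Dll1+ and 1.21 in the Dll1- library, and tumor epithelium held 991 CPM of it in the Dll1+ library and 19.1 CPM in the Dll1- library. Cxcl9 had ratios of 0.69 in the Dll1+ and -1.19 in the Dll1- library, with 72% of the Dll1+ venular UMIs from 1 cell. Gas6, a ligand of TAM receptor kinases, had ratios of -0.82 in the Dll1+ and 1.46 in the Dll1- library, and the fibroblast gate held 884 CPM of it in the Dll1+ library and 255 CPM in the Dll1- library. Among marker-poor cells the ratios of Gas6 were 0.53 and 1.18. Nrp2, a co-receptor for VEGF that marks veins and lymphatics, had ratios of 0.76 in the Dll1+ and -0.69 in the Dll1- library, and of -0.28 and -0.98 among marker-poor cells.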

How the results depend on the processing

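No paired analysis was possible because each group is 1 library and the labels give no replicate numbers. With 3 or more member genes the shares were 5.87% and 12.1%, the genes 2-fold apart between venular and other cells were 49 higher and 100 lower, and those between Dll1+ and Dll1- venular cells 904 and 644. With 1 or more they were 69.8% and 71.2% (difference -1.39 points), 25 and 4, and 247 and 91. With the rule on cells thinned to 2000 UMIs they were 9.0% and 11.2%, 103 and 239, and 976 and 828. Removal of the highest doublet scores gave 34 genes higher in venular cells. With marker-poor cells alone there were 66 higher and 160 lower, and between tumors 799 and 526. The rule on 1 or more of Selp, Sele and Ackr1, chosen after seeing the data, gave a Dll1- share of 32.6%, 26 genes higher in venular cells and 186 lower between tumors. TMM factors gave 290 higher between tumors. A pseudocount of 10 CPM gave 8 higher in venular cells, and 214 and 170 between tumors. No minimum level gave 120 and 402, and 2177 and 2157. The mean over cells gave 35 and 113. Shared barcodes, Rgs5 at 0 and a 10% mitochondrial limit moved no share and no count past these bounds.

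Of 1078 list medians, 130 had the sign opposite to that under the main rule, 32 of them with the thinned rule, 26 with 3 or more member genes, 25 with 1 or more and 17 among marker-poor cells. Of the values of named genes 612 stayed within their bounds, 91 moved and 17 changed sign. Among list medians past 1.5-fold under the main rule, 5 of 182 changed sign, namely MHC class II in the Dll1+ library (-0.72 with 3 or more member genes, -0.60 with the thinned rule) and the arterial list (1.55 in the Dll1+ and 0.29 in the Dll1- library with 1 or more member genes, 0.089 in the Dll1- library with the thinned rule). Between tumors and with 3 or more member genes, the medians of the tip cell (-0.25), adhesion (-0.23) and basement membrane lists (-0.46) changed sign too. With 1 or more member genes the mean venular ratios were 0.66 for Cxcr4, 0.89 for Esm1, 0.76 for Hey1, 0.34 for Uchl1, 0.60 for Tbxa2r, 0.59 for Sema7a, 0.46 for Celf4, 0.075 for Cldn5, 0.45 for Dll4 and 1.13 for Efnb2, as cells with Vwf alone then count as venular. Between tumors Esm1 was at -1.28 with 3 or more member genes and -0.43 with the thinned rule, Scd1 at 0.91 and Hbegf at 1.02 with the thinned rule, Car12 at -0.93 without the highest doublet scores, and Klf5 at 0.38 and Plin2 at 0.24 among marker-poor cells. The cause of these changes was not tested.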

Other observations

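Cell cycle genes were higher in venular than in other gate cells above all in the Dll1- tumor. Of 16 measured, 4 were 1.5-fold higher and none lower in both libraries, with a median log2 ratio of 0.66, and the counts were 6 of 18 higher and 2 lower in the Dll1+ and 13 of 16 higher and none lower in the Dll1- library. Cenpa, the centromere histone, had 158 CPM in venular and 82.1 CPM in other Dll1+ cells, and 67.2 CPM in venular and 29.6 CPM in other Dll1- cells. Its UMIs came from 12 of 54 Dll1+ and 19 of 82 Dll1- venular cells. Aurkb, a mitotic kinase, had 45.8 CPM in venular and 24.4 CPM in other Dll1+ cells, and 29.9 CPM in venular and 10.1 CPM in other Dll1- cells. The Dll1+ median of the list was 0.36, and it was -0.18 with 3 or more member genes. The list's median among marker-poor cells was 0.08 in the Dll1+ and 1.06 in the Dll1- library.

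Some type I interferon genes were lower in venular cells: none of 19 measured was 1.5-fold higher and 4 were lower in both libraries, with a median of -0.50. Rsad2, the antiviral enzyme viperin, had 82.0 CPM in venular and 288 CPM in other Dll1+ cells, and 151 CPM in venular and 268 CPM in other Dll1- cells, and tumor epithelium held 424 CPM in the Dll1+ library and 383 CPM in the Dll1- library. The ratio of Rsad2 among marker-poor cells was 0.15 in the Dll1+ and -1.57 in the Dll1- library.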
